A study of Mus musculus with 7 samples.

Results

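The Tox family is a group of 4 DNA-binding proteins, encoded in the mouse by Tox, Tox2, Tox3 and Tox4, and its transcripts were read here in regulatory T cells (Tregs) of aged and young mice. The members were taken by gene symbol from the deposited expression table, which lists 25469 genes, and all 4 symbols were found. The cells were CD4+CD25+ splenocytes of wild-type (WT) mice, which the study isolated with magnetic beads and which its methods describe as male C57BL/6. Aged Tregs came from mice 18 months old (n = 3, called aged 1 to aged 3) and young Tregs from mice labelled as 8 weeks old (n = 4, called young 1 to young 4), no agent is named for either group, and the age of the young mice is given differently in the study's text. The libraries are labelled as biological replicates, without saying whether cells of several mice were pooled.

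All 4 proteins carry a single high mobility group (HMG) box, a fold that slides into the minor groove of DNA and bends it. Tox is known from the thymus, where CD4 T cells do not form without it, and from exhausted T cells, where calcineurin and NFAT signals switch it on. Tox2 is known from follicular helper T cells, natural killer (NK) cells and exhausted T cells, Tox3 mainly from neurons and epithelia, and Tox4 is expressed broadly as a DNA-binding subunit of the PTW/PP1 phosphatase complex.

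A coding stretch that the members share at the HMG box is shown, because reads from near-identical copies would be hard to assign. The limits of the box itself were not available, so the stretch need not match them. The 4 stretches below were aligned without gaps, run 5′ to 3′ on the coding strand, come from the GENCODE M21 transcripts on GRCm38, and have in capitals each base that is identical in all 4 members.
Tox: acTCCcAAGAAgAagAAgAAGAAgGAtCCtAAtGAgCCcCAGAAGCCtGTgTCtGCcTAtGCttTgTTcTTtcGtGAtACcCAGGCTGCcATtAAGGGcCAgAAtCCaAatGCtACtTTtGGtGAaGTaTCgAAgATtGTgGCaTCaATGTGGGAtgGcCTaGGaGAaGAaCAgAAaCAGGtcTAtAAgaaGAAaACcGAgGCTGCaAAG
Tox2: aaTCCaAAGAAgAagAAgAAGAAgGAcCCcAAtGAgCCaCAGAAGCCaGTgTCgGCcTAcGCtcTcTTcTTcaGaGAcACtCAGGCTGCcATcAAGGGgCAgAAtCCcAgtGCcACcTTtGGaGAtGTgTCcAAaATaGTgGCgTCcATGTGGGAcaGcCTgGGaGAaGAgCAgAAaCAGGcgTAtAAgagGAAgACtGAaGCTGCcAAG
Tox3: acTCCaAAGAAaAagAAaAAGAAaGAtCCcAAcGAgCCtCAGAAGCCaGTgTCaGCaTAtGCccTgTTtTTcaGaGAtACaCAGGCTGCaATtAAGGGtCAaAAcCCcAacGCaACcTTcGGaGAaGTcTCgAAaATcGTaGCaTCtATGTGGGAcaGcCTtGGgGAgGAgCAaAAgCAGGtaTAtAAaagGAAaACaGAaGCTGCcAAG
Tox4: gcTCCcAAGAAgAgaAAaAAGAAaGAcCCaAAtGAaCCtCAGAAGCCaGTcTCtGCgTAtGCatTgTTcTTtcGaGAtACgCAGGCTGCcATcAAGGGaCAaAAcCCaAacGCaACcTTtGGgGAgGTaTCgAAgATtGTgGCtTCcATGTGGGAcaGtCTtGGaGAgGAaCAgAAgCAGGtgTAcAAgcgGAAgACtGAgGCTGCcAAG
Of the 210 bases in each stretch, 144 (68.6%) were identical in all 4 members, and pairs of members were identical at 78.1% (Tox and Tox3) to 81.4% (Tox and Tox4) of the bases. Most of the lower-case letters are the last base of a codon, and they are scattered over the stretch rather than gathered in 1 place. The longest run of identical bases between the transcripts of any pair was 24 bases (Tox and Tox3), and no pair shared a run of 50 bases. The stretch lies over 2 exons in each gene, at chr4:6711509-6722317 on the minus strand for Tox, chr2:163315843-163319591 on the plus strand for Tox2, chr8:90252703-90254454 on the minus strand for Tox3 and chr14:52287352-52290790 on the plus strand for Tox4.

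Reads counted on genes numbered 10734234 to 11244060 in the aged and 12039894 to 13649310 in the young libraries. Foxp3, Cd4 and Il2ra, the defining genes of the isolated cells, were present in all 7 libraries, with Foxp3 at 447 to 622 CPM (counts scaled to a common library total) in aged and 394 to 518 CPM in young Tregs. Il2ra, which encodes CD25, lay at 327 to 481 CPM in aged and 471 to 684 CPM in young Tregs (log2 fold change -0.61, adjusted p = 0.0588 from edgeR). It was called lower by DESeq2, by voom, and by edgeR with no filter, with the GC content and length trends removed, and without aged 1 (-0.81, adjusted p = 0.0158). Cd4 lay at 434 to 446 CPM in aged and 493 to 633 CPM in young Tregs (adjusted p = 0.117 from edgeR, called by DESeq2). Of 10 Treg markers tested, none was called higher and 2 were called lower (9.8% and 6.94% of all genes tested, at an adjusted p under 0.05), Gpr83 (log2 fold change -1.71) and Lrrc32 (-1.02). Of 7 macrophage markers tested, 3 (Csf1r, Adgre1 and Vcam1) were called lower and none higher (6.94% and 9.8% of all genes tested). Transcripts of other cells were present, with 1.24% to 13.1% of the gene counts on haemoglobin genes. Mitochondrially encoded genes took 5.08% to 10.7% in the aged and 2.63% to 3.23% in the young libraries, so that this share differed between the ages without overlap. Aged 1 and young 2 stood apart from the other libraries of their age in chi-square values per degree of freedom, with only library totals allowed for. These were 90.1 to 165 for pairs with aged 1 against 39.9 for aged 2 with aged 3. They were 72.5 to 151 for pairs with young 2 against 8.16 to 34.0 for the other young pairs. Aged 1 and young 2 also had the smallest haemoglobin shares, 1.27% and 1.24%. The share was 13.1% and 7.60% in aged 2 and aged 3, and 5.91% to 10.4% in the other young libraries. The part of haemoglobin counts in the chi-square values was not tested. Results for the family are also given without aged 1 and without young 2.

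Aging was accompanied by more Tox2 transcript in these Tregs, while the difference in Tox was not called, Tox4 differed little and Tox3 was hardly read. Over the whole transcriptome, 2327 of 13904 genes tested (16.7%) had an adjusted p under 0.05 and are called differentially expressed genes (DEGs), 9.8% being higher and 6.94% lower in aged Tregs. Of the 3 family members that could be tested, 1 was a DEG, which was higher.

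Tox2 (ENSMUSG00000074607) spans 121 kb at chr2:163203125-163324170 on the plus strand of GRCm38, in 11 exon blocks, and none of its exon length overlaps exons of another gene in GENCODE M21. Its level, as CPM on the TMM scale, was 15.0, 16.1 and 20.7 in aged 1 to aged 3. In young 1 to young 4 it was 6.38, 7.50, 6.79 and 7.74 CPM. Every aged library was above every young one, and the lowest aged value was still well clear of the highest young value. Such a separation in this direction was found for 15.5% of all genes tested, and in either direction for 29.9%. The values rest on 160 to 221 reads in the aged and 73 to 108 reads in the young libraries. The mean rose from 7.10 ± 0.628 CPM (n = 4, SD) in young to 17.3 ± 3.0 CPM (n = 3, SD) in aged Tregs. The rise was 2.43-fold, a log2 fold change of 1.28 (standard error, SE, 0.159, 95% interval 0.92 to 1.64, adjusted p = 0.00193 in the edgeR quasi-likelihood fit). By its p, Tox2 ranked 211 among the 13904 genes, and 556 of the 1362 genes called higher rose more. The exact permutation test over the libraries gave p = 0.0571, two-sided, which is the smallest that 3 against 4 libraries can give.

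The rise of Tox2 was called in each of the 17 alternative fits, with a log2 fold change from 1.13, without aged 3, to 1.37, without aged 1. Without young 2 it was 1.31 (adjusted p = 0.00445 from edgeR). In bulk samples such as these, more cells with Tox2 and more Tox2 transcript per cell cannot be told apart. The 8 markers of NK cells, where Tox2 is also known, were together at 30.2 to 45.2 CPM in aged and 38.6 to 68.2 CPM in young Tregs. Of these markers 1, Klrb1c, was called lower and none higher (6.94% and 9.8% of all genes tested), and none was at 0 in all libraries. The 8 neutrophil genes were together at 663 to 5260 CPM together in aged and 305 to 978 CPM in young Tregs, ranges that overlap. Of these, 3 (S100a8, S100a9 and Cxcr2) were called higher and none lower (9.8% and 6.94% of all genes tested), and none was at 0 in all libraries, while Cxcr2 was called in 7, S100a9 in 4 and S100a8 in 2 of the 7 fits with a library left out. The part of NK cells and neutrophils in the Tox2 result was not tested, nor was that of the follicular helper genes described further on. With haemoglobin, immunoglobulin and mitochondrial genes removed before scaling, the log2 fold change of Tox2 was again 1.28.

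Tox (ENSMUSG00000041272) is the largest gene of the family, spanning 305 kb at chr4:6686353-6991557 on the minus strand, in 11 exon blocks. Its level was 85.6, 75.6 and 99.7 CPM in aged 1 to aged 3. In young 1 to young 4 it was 69.4, 77.3, 59.8 and 59.8 CPM. The groups overlapped, because young 2 lay above aged 2. The means were 87.0 ± 12.1 CPM (n = 3, SD) in aged and 66.6 ± 8.47 CPM (n = 4, SD) in young Tregs. The fold difference was 1.31, a log2 fold change of 0.39 (SE 0.132, 95% interval 0.09 to 0.69), with an unadjusted p of 0.0177 and an adjusted p of 0.0799 in the edgeR quasi-likelihood fit, so that Tox was not called. The exact permutation test gave p = 0.114, two-sided. The call turned on 1 library, as Tox was called without young 2 (0.47, adjusted p = 0.0478 from edgeR) and in none of the other alternatives, whose adjusted p reached 0.316. Without aged 1 the log2 fold change was 0.39 (adjusted p = 0.104 from edgeR). Markers of thymocytes, the cells where Tox is best known, were together at 30.4 to 37.3 CPM in aged and 53.5 to 118 CPM in young Tregs. In the aged libraries most of this sum was Cd8b1, also a gene of CD8 T cells, at 22.4 to 34.6 CPM against 27.7 to 44.6 CPM in young Tregs (adjusted p = 0.265 from edgeR). Of the 4 tested, Rag1 and Dntt were called lower and none higher (6.94% and 9.8% of all genes tested), Rag1 in 2 and Dntt in 6 of the 7 fits with a library left out. The part of thymocytes in the Tox result was not tested. Exons of the antisense gene Gm11802 overlap 3.42% of the Tox exon length, and that gene had 0 or 1 reads in each library.

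Tox4 (ENSMUSG00000016831) is the most compact gene of the family, spanning 17.3 kb at chr14:52279146-52296401 on the plus strand, in 8 exon blocks. Its level was 93.9, 100.1 and 90.5 CPM in aged 1 to aged 3. In young 1 to young 4 it was 102.9, 99.9, 97.7 and 101.3 CPM. The groups overlapped, with aged 2 inside the young range, and the libraries lay close together. The means were 94.8 ± 4.87 CPM (n = 3, SD) in aged and 100.4 ± 2.23 CPM (n = 4, SD) in young Tregs. This gave a log2 fold change of -0.08 (SE 0.0801, adjusted p = 0.517 in the edgeR quasi-likelihood fit), and its 95% interval ran from -0.27 to 0.10. Tox4 was called in none of the 17 alternatives, in which the log2 fold change lay between -0.15 and -0.02. Exons of Mettl3, which encodes an RNA methyltransferase, and of Rab2b, which encodes a small GTPase, overlap 16.2% of the Tox4 exon length on the other strand, so that some reads may not have been assigned. Neither neighbour was called, with 30.5 CPM in aged and 34.5 CPM in young Tregs for Mettl3 (adjusted p = 0.392 from edgeR) and 1.47 and 2.65 CPM for Rab2b (adjusted p = 0.105 from edgeR).

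Tox3 (ENSMUSG00000043668), which spans 101 kb at chr8:90247040-90348343 on the minus strand in 7 exon blocks, was read 0, 0 and 1 times in aged 1 to aged 3. In young 1 to young 4 it was read 2, 0, 1 and 2 times. No library reached the limit of 3 reads, which corresponds to 0.21 to 0.302 CPM, so the gene was below the filter on low counts and its level was not detectable at this depth. No fold change is given for it.

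**Figure D1:**
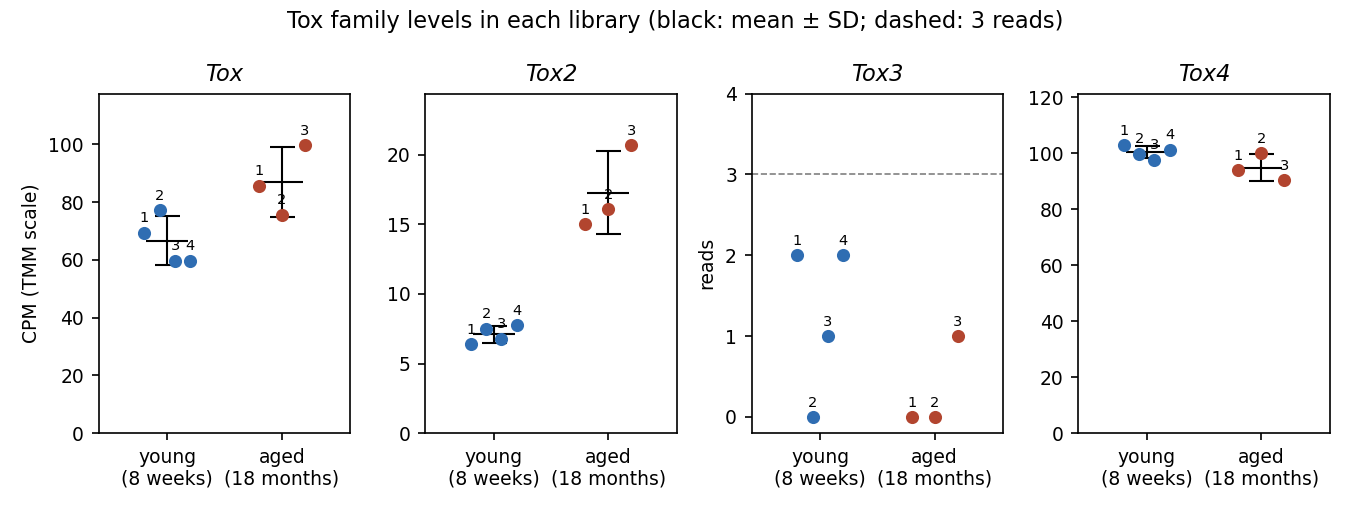
Level of each Tox family member in the 7 libraries, as CPM on the TMM scale for Tox, Tox2 and Tox4 and as reads for Tox3, with 1 numbered point per library (blue, young, n = 4; red, aged, n = 3), the mean and SD in black, and a dashed line at 3 reads. The aged and young points are separate for Tox2 and overlap for Tox and Tox4, and Tox3 stays below 3 reads.

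The spread between libraries also differed among the members. The coefficient of variation in aged and young Tregs was 5.14% and 2.22% for Tox4, 13.9% and 12.7% for Tox, and 17.4% and 8.84% for Tox2. Tox4 was thus the steadiest member within each age, and Tox2, which has the fewest reads of the 3, varied most among the aged libraries.

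To order the members by level, CPM was divided by gene length in kilobases (kb). Over the merged exons of each gene, young Tregs held 14.5 ± 0.321 CPM per kb of Tox4, 8.75 ± 1.11 of Tox and 2.09 ± 0.185 of Tox2 (mean ± SD, n = 4), and Tox3 was under its limit of 0.0626 to 0.0781. In aged Tregs the levels were 13.6 ± 0.701 CPM per kb for Tox4, 11.4 ± 1.59 for Tox and 5.08 ± 0.882 for Tox2 (mean ± SD, n = 3). The order Tox4, Tox, Tox2 was therefore the same at both ages on this scale, with Tox3 under its limit below them. In aged Tregs the ranges of Tox4 (13.0 to 14.4) and Tox (9.94 to 13.1) touched, so that these neighbours were not apart beyond their spread. Tox2 stayed below Tox in every library. With the length of the longest coding transcript instead, aged Tregs held 22.0 ± 3.05 CPM per kb of Tox and 17.7 ± 0.91 of Tox4 (mean ± SD, n = 3), and young Tregs 16.8 ± 2.14 and 18.8 ± 0.417 (mean ± SD, n = 4). The place of Tox relative to Tox4 in aged Tregs thus depends on the length used, and the place of Tox2 below both does not.

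**Figure D2:**
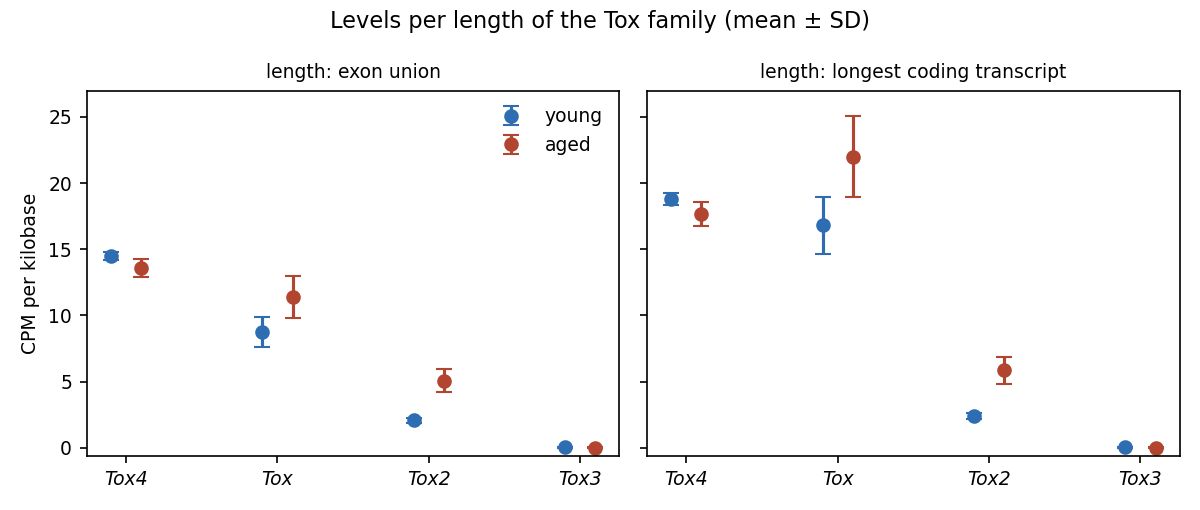
Levels per gene length (CPM per kb, mean ± SD) of the 4 members in young (blue, n = 4) and aged (red, n = 3) Tregs, with the merged exon length on the left and the longest coding transcript on the right. Tox3 was under its limit of detection in each library, Tox2 lies below Tox and Tox4 on both scales, and the aged mean of Tox lies above that of Tox4 on the right but not on the left.

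Seen as a share of the reads of all 4 members, Tox2 made up 7.72%, 8.40% and 9.80% in aged 1 to aged 3. In young 1 to young 4 its share was 3.57%, 4.06%, 4.13% and 4.58%. Tox4 held 47.8% ± 4.66 (n = 3, SD) of the family's reads in aged and 57.8% ± 2.66 (n = 4, SD) in young Tregs, and Tox 43.6% ± 3.93 and 38.1% ± 2.88. The Tox2 share did not overlap between the ages. The shares add up to the whole, so a lower share of Tox4 is no separate result, its own level having overlapped between the ages.

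Ratios within a library do not depend on how libraries are scaled, and they were used to ask whether the members differed from one another in their difference with age. The log2 ratio of Tox2 to Tox4 counts was -2.64, -2.63 and -2.13 in aged 1 to aged 3. In young 1 to young 4 it was -4.00, -3.73, -3.84 and -3.70. The aged libraries were all above the young ones, with a difference of 1.35 in the means (exact permutation test, two-sided, p = 0.0571, 0.0857 adjusted over the 3 pairs). The log2 ratio of Tox2 to Tox was -2.51, -2.23 and -2.27 in aged and -3.43, -3.36, -3.13 and -2.94 in young Tregs. Again no value overlapped, with a difference of 0.88 (exact permutation test, two-sided, p = 0.0571, adjusted p = 0.0857). The log2 ratio of Tox to Tox4 was -0.13, -0.40 and 0.14 in aged and -0.57, -0.37, -0.71 and -0.76 in young Tregs. Here aged 2 lay below young 2, and the difference of 0.47 had p = 0.114 (exact permutation test, two-sided, adjusted p = 0.114). With 3 against 4 libraries none of these tests can pass a threshold of 0.05.

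**Figure D3:**
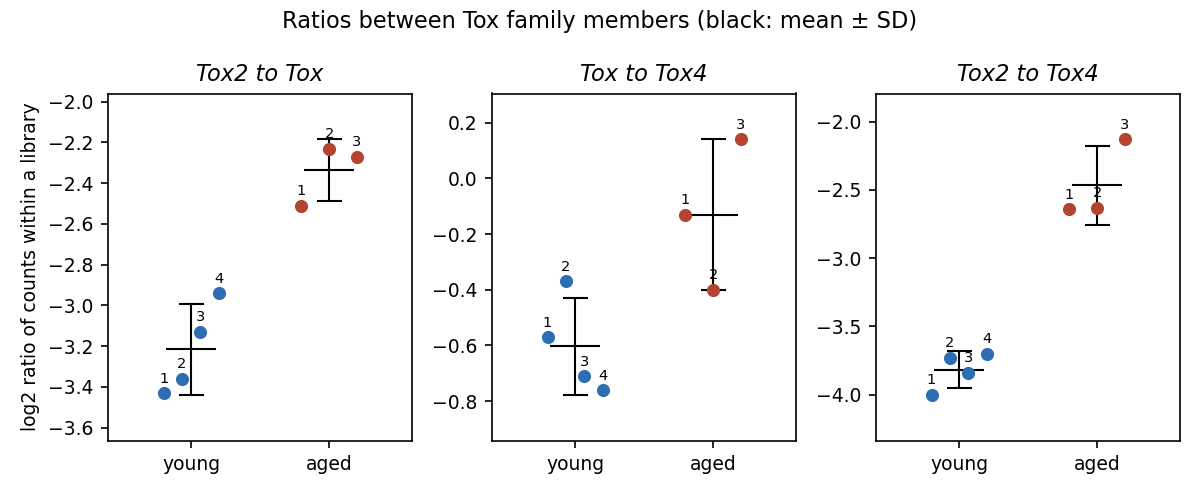
Log2 ratio of the counts of 2 members within each library, with 1 numbered point per library (blue, young, n = 4; red, aged, n = 3) and the mean and SD in black. Both ratios with Tox2 as numerator are higher in every aged than in every young library, and the ratio of Tox to Tox4 overlaps.

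**Figure D4:**
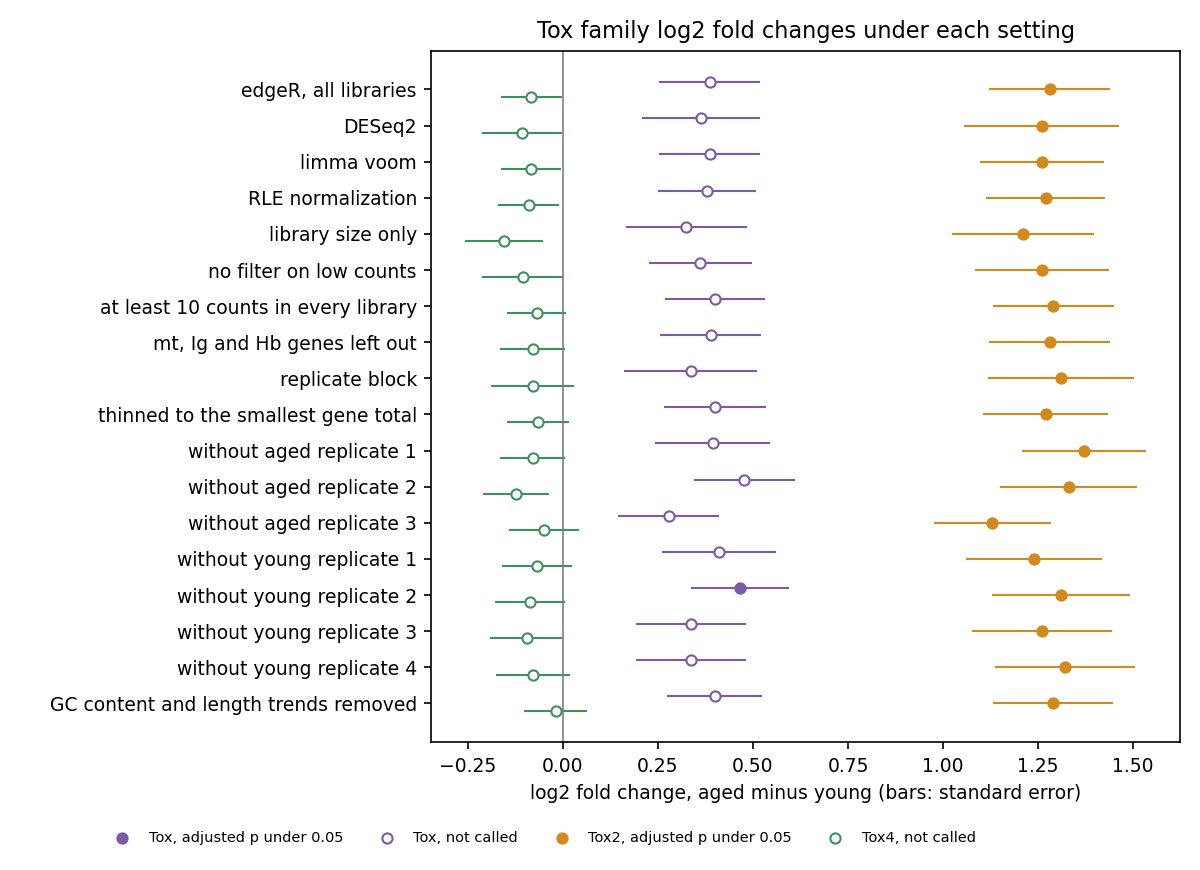
Log2 fold changes, aged minus young, of Tox, Tox2 and Tox4 with their standard errors (bars) in the edgeR fit of all libraries and in 17 alternatives. Filled points had an adjusted p under 0.05, which holds for Tox2 in each fit, for Tox in the fit without young 2 and for Tox4 in none.

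Genes with the nearest profile over the 7 libraries were sought for each member that could be tested, by the root mean square difference of centred log2 CPM among 9148 genes of sufficient level. For Tox2 the nearest was Ctla2a, which encodes an inhibitor of cysteine proteases, at a difference of 0.0309 log2 units against a median of 0.69 over the genes compared. Ctla2a was at 33.4 CPM in aged and 14.2 CPM in young Tregs. It was followed by Myo1h (0.115) and Dcun1d4 (0.13). For Tox the nearest were Nceh1 (0.0456), Rab11fip4 (0.0525) and Ythdf3 (0.0623), where the median was 0.326. For Tox4 they were Rbm6 (0.0232), Rnf114 (0.0235) and Vps52 (0.0257), where the median was 0.205. These are descriptions of 7 libraries that share the age difference.

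The partners of Tox4 were the first of the related gene groups examined. The groups were chosen with earlier results of these data known. Their counts and medians, set beside those of all genes, therefore describe these libraries and are no test of a group. Of the 5 genes of the PTW/PP1 complex tested, 0 were called higher and 2 lower (9.8% and 6.94% of all genes tested), and the median log2 fold change was -0.38 against 0.02 for all genes tested. Ppp1ca, which encodes a catalytic subunit of protein phosphatase 1, fell from 383 ± 23.0 CPM (n = 4, SD) to 276 ± 14.0 CPM (n = 3, SD), a log2 fold change of -0.47 (adjusted p = 0.0171 from edgeR). Ppp1cc, a second catalytic subunit, fell by 0.55 on the log2 scale (adjusted p = 0.0221 from edgeR) and lost its call without aged 2, aged 3, young 3 or young 4. Wdr82, a WD-repeat subunit, had a log2 fold change of -0.37 (adjusted p = 0.108), and Ppp1cb, the remaining catalytic subunit, one of 0.07 (adjusted p = 0.937), with library size alone as the scale turning the latter to -0.04. Ppp1cb ranged from 177 CPM in aged 1 to 778 CPM in aged 2, the libraries with 1.27% and 13.1% haemoglobin reads, and the part of red cell transcripts in its spread was not tested. The count of 2 fell to 0 without aged 3 or without young 4, and to 1 without young 3.

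The genes of the signal that switches on Tox, calcineurin with the NFAT and Nr4a factors, gave no call among 9 tested with edgeR (16.7% of all genes tested were called). At an unadjusted p under 0.05 there were 4 (32.6% of all genes tested), and DESeq2 called 4 (17.6% of the genes it tested), of which Nr4a2 was higher and Nfatc3, Nr4a1 and Nr4a3 were lower in aged Tregs. The median log2 fold change was -0.08. Nfatc3 lay at 162 to 253 CPM in aged and 276 to 294 CPM in young Tregs (log2 fold change -0.51, adjusted p = 0.051 from edgeR), and Nfatc1 one of 0.11 (adjusted p = 0.508). The count was 2 without aged 1, and 1 without young 3 or without young 4. It was 3 in edgeR with no filter on low counts, and 1 each with voom, with library size only, with the GC content and length trends removed, and with haemoglobin, immunoglobulin and mitochondrial genes removed.

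Of the receptors that accompany Tox in exhausted T cells, 8 were tested, and 2 were called higher and 1 lower (9.8% and 6.94% of all genes tested), with a median log2 fold change of 0.63. Lag3, an inhibitory receptor for MHC class II, rose 5.90-fold from 25.2 ± 4.87 CPM (n = 4, SD) to 149 ± 66.5 CPM (n = 3, SD), a log2 fold change of 2.56 (adjusted p = 0.00125 from edgeR). Tigit, an inhibitory receptor for CD155, rose 2.98-fold, from 54.5 ± 13.7 to 162 ± 22.5 CPM (adjusted p = 0.00162 from edgeR). Cd244, a receptor of NK and T cells, fell by 0.74 on the log2 scale (adjusted p = 0.0193 from edgeR). Among the 8 NK cell markers, Klrb1c was also called lower (log2 fold change -0.73, adjusted p = 0.0185 from edgeR) and none higher. The part of NK cells in the fall of Cd244 was not tested. Ctla4 had a log2 fold change of 0.86 (adjusted p = 0.103) and Pdcd1, which encodes PD-1, one of 0.69 (adjusted p = 0.134), both with overlapping groups. In young 2, Pdcd1 was at 76.5 CPM against 34.3 to 38.4 CPM in the other young libraries. Without young 2, the library that also held the highest young level of Tox, 6 of the 8 genes were called. In that fit 1988 of all 13696 genes tested were called. Among the 6 were Pdcd1 (1.05, adjusted p = 0.00321 from edgeR) and Ctla4 (1.24, adjusted p = 0.00593 from edgeR). Without young 4, 2 were called. DESeq2 called 5 (17.6% of the genes it tested), and edgeR called 4 with library size only or with the GC content and length trends removed. Cd244 lost its call without aged 2 (adjusted p = 0.0502) and without young 4 (adjusted p = 0.0629 from edgeR). Of 4 markers of CD8 T cells, which also carry these receptors, 1 was called higher, Gzmk, from 0.546 to 6.62 CPM. Gzmk had 2 to 14 reads in the young and 22 to 113 reads in the aged libraries. Of 6 plasma cell markers 1 was called higher, Prdm1, which activated T cells also express. Prdm1 rose 2.29-fold and was called in 2 of the 7 fits with a library left out. No marker of either list was called lower (9.8% of all genes tested were called higher and 6.94% lower). The summed CPM of both lists overlapped between the ages, at 52.8 to 104 in aged and 59.5 to 108 in young Tregs for CD8 T cells and at 749 to 1300 and 325 to 2000 for plasma cells, none of these markers was at 0 in all libraries, and the part of these cells in the receptor result was not tested.

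Genes of the follicular helper programme, in which Tox2 is known to act, were called higher for 5 of the 9 tested and lower for 0 (9.8% and 6.94% of all genes tested), with a median log2 fold change of 0.81. Il21, which encodes the cytokine of these cells, rose from 0.545 ± 0.136 CPM (n = 4, SD) to 9.54 ± 3.70 CPM (n = 3, SD). Its log2 fold change was 4.09 (adjusted p = 0.000528 from edgeR). It had 4 to 9 reads in the young libraries, near the limit of 3 reads, and 61 to 144 in the aged ones. Maf, a transcription factor that drives Il21, had a log2 rise of 1.12 (adjusted p = 0.00131 from edgeR). Batf, an AP-1 factor, rose by 1.00 (adjusted p = 0.00397 from edgeR). Icos, a costimulatory receptor, rose by 0.92 (adjusted p = 0.0221 from edgeR), but was called in only 3 of the 7 fits that each left out 1 library, failing without aged 3, young 1, young 3 or young 4. Cxcr5, the remaining gene called higher, rose by 0.81 (adjusted p = 0.00296 from edgeR). Slamf6, at 237 and 206 CPM in aged and young Tregs, had a log2 fold change of 0.20 (adjusted p = 0.244), and Cd200 one of -0.29 (adjusted p = 0.381). Bcl6 was also not called, with a log2 fold change of 0.305 (adjusted p = 0.215 from edgeR), and neither was Sh2d1a (0.686, adjusted p = 0.0502 from edgeR). Both had overlapping groups. Of 5 CD4 T cell markers 1, Cd3e, was called higher and none lower (9.8% and 6.94% of all genes tested). Cd3e was called in 2 of the 7 fits with a library left out. The 5 markers summed to 1820 to 2070 CPM in aged and 1670 to 2150 CPM in young Tregs. Of 6 dendritic cell markers, Zbtb46 was called higher and Clec9a (in 1 of those 7 fits) and Siglech lower (9.8% and 6.94% of all genes tested). The 6 markers summed to 41.1 to 62.9 CPM in aged and 55.8 to 74.8 CPM in young Tregs. No marker of either list was at 0 in all libraries, and the part of these cells in the follicular result was not tested.

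Among 10 factors of the CD4 lineage and of thymic T cells, the setting in which Tox is needed, 0 were called higher and 5 lower (9.8% and 6.94% of all genes tested), with a median log2 fold change of -0.46. Satb1, a chromatin organizer, fell from 230.0 ± 15.1 CPM (n = 4, SD) to 85.3 ± 18.1 CPM (n = 3, SD), a log2 fold change of -1.43 (adjusted p = 0.00114 from edgeR). Myb fell by 1.30 on the log2 scale (adjusted p = 0.00162 from edgeR). Tcf3, which encodes the E proteins E12 and E47, fell by 0.77 (adjusted p = 0.00158 from edgeR). Zbtb7b, which encodes the CD4 lineage factor ThPOK, fell by 0.71 (adjusted p = 0.0184 from edgeR) and lost its call without aged 3, young 1 or young 4. Bcl11b and Tcf12 had log2 fold changes of -0.21 and -0.35 and were not called (adjusted p = 0.333 and 0.142), but without aged 1 Tcf12 was at -0.55 and called (adjusted p = 0.00992 from edgeR). The count of 5 was 3 without aged 3, young 1 or young 4, and 6 without aged 1. The thymocyte markers Rag1 (log2 fold change -3.78) and Dntt (-1.52) were called lower in the same comparison, and the part of thymocytes in the falls of these factors and of Sox4 was not tested.

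Apart from Tox2, the called HMG-box genes among those listed here lay lower in aged Tregs. Of 24 HMG-box genes outside the family that were tested, 0 were called higher and 7 lower (9.8% and 6.94% of all genes tested), with a median log2 fold change of -0.01. Sox4, a factor of immature lymphocytes, fell from 7.40 ± 2.10 CPM (n = 4, SD) to 0.528 ± 0.219 CPM (n = 3, SD). Its log2 fold change was -3.78 (adjusted p = 0.000898 from edgeR). It had 3 to 8 reads in the aged libraries, near the limit of 3 reads, and 71 to 133 in the young ones. Lef1, a factor of naive T cells, fell by 1.13 on the log2 scale, from 110.0 to 50.2 CPM (adjusted p = 0.000617 from edgeR). Tcf7l1 fell by 1.02 (adjusted p = 0.0469 from edgeR), with 11 to 47 reads in a library, and among the 7 fits with a library left out it was called in 1, that without aged 1. Pbrm1, a subunit of a chromatin remodelling complex, fell by 0.63 (adjusted p = 0.012 from edgeR). Hmgb2 and Ssrp1, the most abundant of those not called, had log2 fold changes of 0.17 and 0.00 (adjusted p = 0.356 and 0.996). The count of 7 was 4 without any 1 of aged 2, aged 3, young 1, young 3 or young 4.

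**Figure D5:**
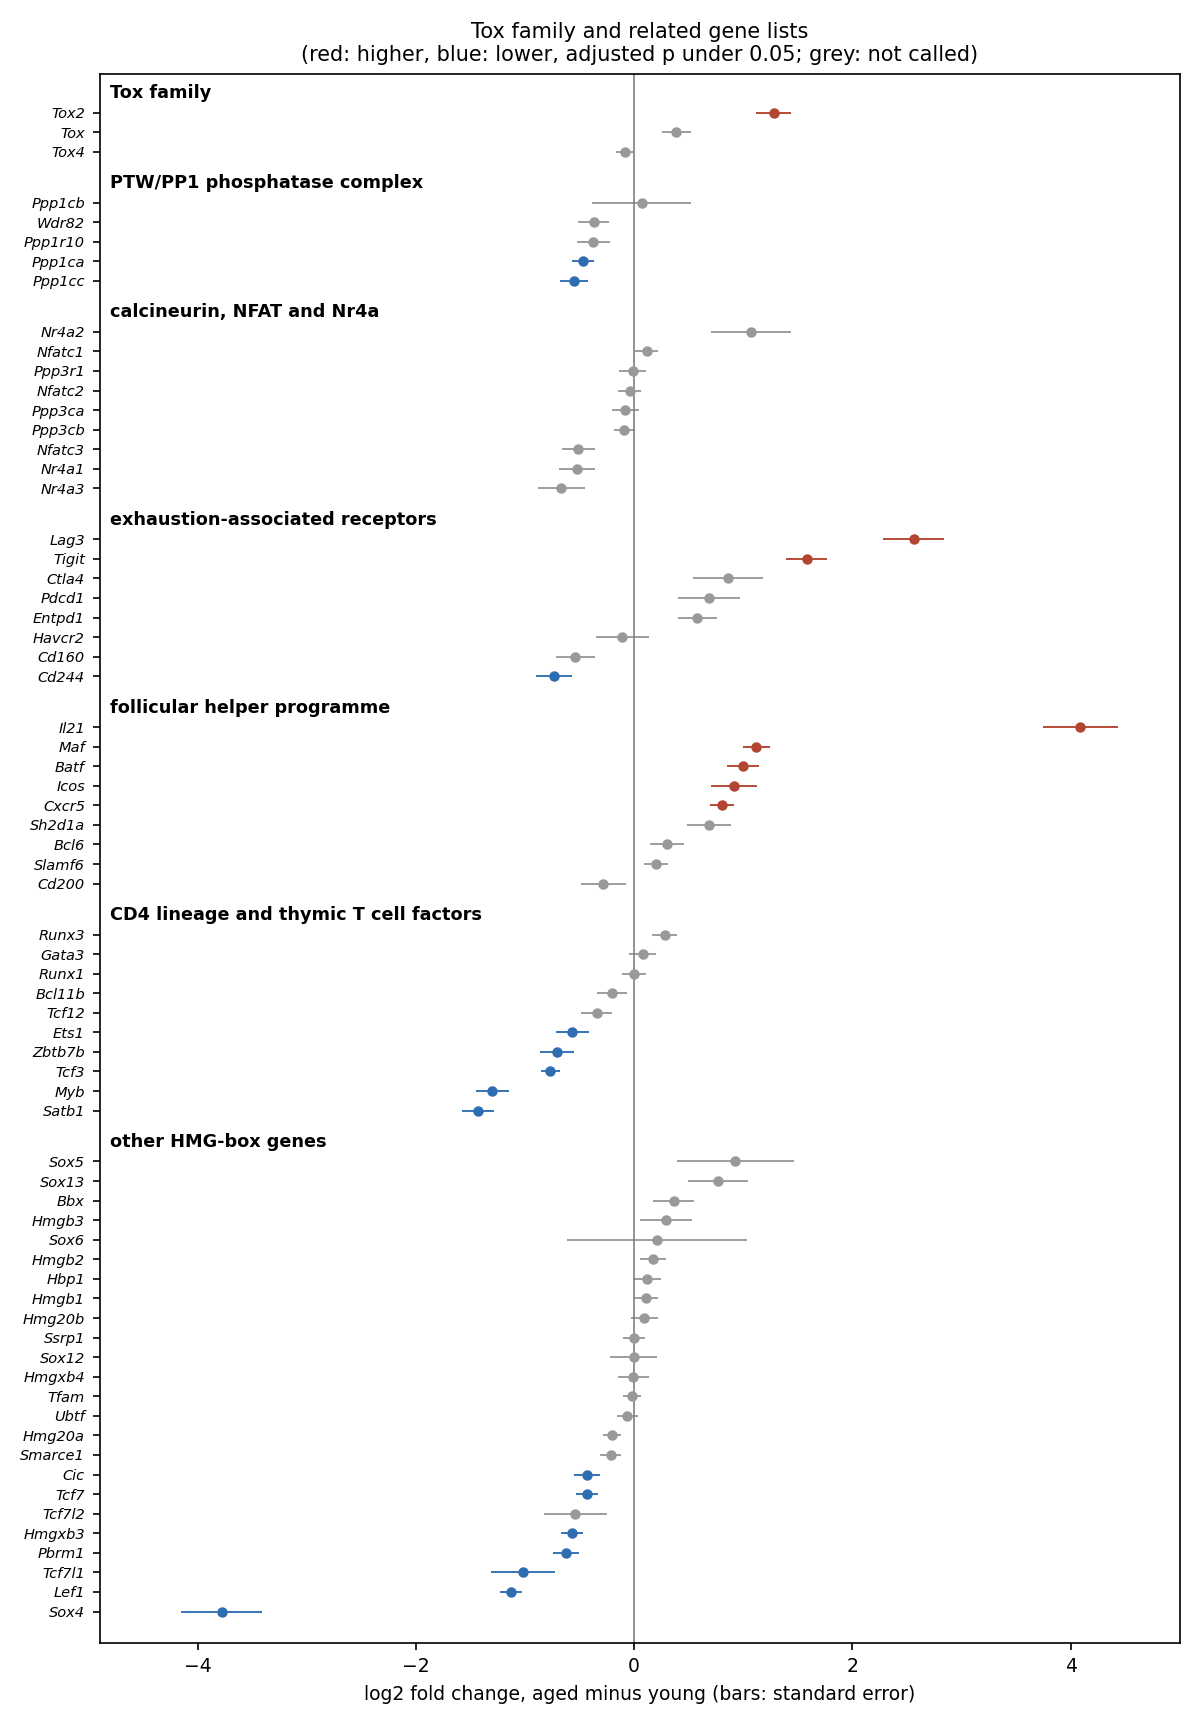
Log2 fold change, aged minus young, with its standard error (bars) for each tested gene of the Tox family and of the 6 related gene lists. Red and blue points had an adjusted p under 0.05 and were higher or lower in aged Tregs, and grey points were not called. Tox2 is the red point of the family, and no other HMG-box gene shown is red.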

How the data were processed

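The members and the gene lists were chosen with earlier results of these data known. RNA from 3 aged and 4 young samples of CD4+CD25+ splenocytes was turned into cDNA with a SMART-Seq kit, without molecular identifiers, so detection limits cover counting error only. The intervals of fold changes come from the edgeR fit and include the spread between libraries. For each library the authors deposited read counts per Ensembl gene, without normalization. Lines that name no gene, which held 13.057% to 20.867% of the reads, were left out. The authors also deposited a table whose signal values were checked to equal each count divided by 1 constant per library, and which gave the gene symbols. That table further holds the authors' own comparison, which was not used. Its columns (base mean, log2 fold change, standard error, test statistic, p-value and adjusted p-value) carry DESeq2's names, whereas the study's methods name limma. The study reports 2910 DEGs. DESeq2, run here on the counts, also called 2910, while voom called 2283 and the main edgeR fit 2327. Whether the genes are the same as the study's was not tested. The genome build is mm10 in the submitters' processing notes, and the aligner is not given in the sources used here. The tables are named and laid out like output of HTSeq-count in union mode. Whether strand was used in counting is not stated in those sources. If strand was ignored, reads where genes overlap on either strand would be left unassigned, so overlaps are given.

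Positions, lengths and sequences are those of GENCODE M21 on GRCm38, in which 47310 of 47729 gene identifiers were found. Counts were normalized by TMM after filterByExpr (by group) and fitted without covariates by the quasi-likelihood method of edgeR 4.0.16 (R 4.3.3), with Benjamini-Hochberg adjustment over 13904 genes and a threshold of 0.05. Fold changes are aged over young. Ratios of members used counts with 0.5 added. Exact permutation tests are two-sided and used log2 values. A limit of 3 reads was taken for detection.

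Named are all 4 members, Foxp3, Cd4 and Il2ra, from each list up to 4 called genes with the largest change and up to 2 not called with the highest level, and the 3 nearest profiles (log2 CPM with a prior count of 2, mean of at least 3, no provisional symbols) of Tox, Tox2 and Tox4. Gm11802, Mettl3, Rab2b, Bcl6, Sh2d1a, Cxcr5, the marker genes and the genes called by DESeq2 fall outside this rule and were named after values were seen. The exhaustion list also held the symbol Cd244a, which did not match, and the follicular list Ascl2, which was below the filter.

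The alternatives were DESeq2 1.42.0, limma 3.58.1 (voom), RLE normalization, library size only, no filter, a minimum of 10 counts in each library, haemoglobin, immunoglobulin and mitochondrial genes removed, the replicate number as a block, thinning to the smallest total and each library left out. Removal of GC content and length trends, and the transcript length, were added after seeing the data. The fit was tested on simulated data.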

Additional observations from a re-analysis of the deposited data

Results flagged for a closer look

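Among 40 groups of 4 young libraries examined, a library lay far from the other 3 by Dixon's test for 6 genes, where chance gives about 1 in 20 groups. Young 2 was high for 4 of them, with Tigit at 74.8 CPM (others 44.8 to 49.5), Pdcd1 at 76.5 CPM (others 34.3 to 38.4), Batf at 58.5 CPM (others 41.9 to 44.0) and Lef1 at 124 CPM (others 104 to 107). The Pdcd1 value lay inside the aged range of 62.2 to 83.7 CPM, and those of Tigit and Batf lay between the other young libraries and the aged ranges. The Lef1 value lay farther from the aged range of 47.8 to 54.0 CPM than the other young libraries did. Young 1 was apart for Ssrp1, at 227 CPM (others 261 to 266), and for Mettl3, at 36.7 CPM (others 33.6 to 33.9). None of the Tox family members gave such a library.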

How the results depend on the processing

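Tox2 was called higher in all 17 alternatives and Tox4 in none. Tox lay between 0.28 and 0.48 (log2) with a library left out and was called without young 2 (0.47), and the cause was not tested. Tox3, under the limit in each library, was fitted without a filter (adjusted p = 0.595 from edgeR) and by DESeq2 (no adjusted p), and its fitted fold changes are not given. The number of DEGs was 1237 to 3058 with a library left out, with 3058 without aged 1, 1262 without aged 3, 1315 without young 1, 1270 without young 3 and 1237 without young 4, and the cause was not tested. No replicate pairing was found, as same-numbered libraries deviated with correlations of -0.0915, -0.292 and -0.138, and with the replicate number as a block 292 genes were called, Tox2 among them (1.31, adjusted p = 0.0492 from edgeR). Under the block the calls fell to 0 in the PTW/PP1 list, 1 in the follicular list (Maf 1.10, adjusted p = 0.0514, Batf 0.95, adjusted p = 0.0511, and Icos 0.82, adjusted p = 0.138, from edgeR), and 2 each in the exhaustion, CD4 lineage and HMG-box lists. Ppp1cb turned to -0.10 with voom, -0.04 with library size only and -0.09 with the block, and lay between -0.49 and 0.46 with a library left out. Ssrp1 turned to -0.02 with DESeq2, -0.01 with RLE normalization, -0.07 with library size only and -0.02 without a filter, and lay between -0.05 and 0.04 with a library left out. Over 542 refits of 32 named genes outside the Tox family, 481 kept direction and call, 33 lost the call, 16 gained it and 12 changed sign. With 73 to 221 reads a library, Tox2 was the tested member with the least depth.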
